A study of Drosophila melanogaster with 29 samples.

Results

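The data describe single PEN2 neurons of the adult Drosophila brain and how they differed from one another. A member was any well of the 5 PEN2 plates (P386, P387, P388, P390 and P393, as the deposited tables name them) that was not at positions E12 to H12 and held at least 500 detected genes. Of the 460 wells at the other positions 362 met this rule, out of 742 wells that met it on all single-cell plates of the series. By plate, the members numbered 72 on plate P386, 88 on plate P387, 50 on plate P388, 73 on plate P390 and 79 on plate P393. All came from female flies aged 3 to 5 days that carried the genetic driver SS02232 and a nuclear tdTomato reporter, with no other genotype or treatment among them. Brains were pooled and dissociated, and single fluorescent cells were sorted by FACS. The driver's expression defines the cells, so any other cell type that it or the sort gate admitted can also be present. The labels do not say whether plates came from separate dissections, so p-values below apply to these 5 plates only. They rest on a spread that edgeR estimates partly from other genes, and do not measure the agreement of the plates alone.

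PEN2 neurons are columnar neurons of the central complex that link the protocerebral bridge, the ellipsoid body and the noduli. This network holds the fly's sense of heading, and PEN neurons carry turning signals within it. Their transmitter can be read from synthesis and vesicle loading genes such as ChAT, which makes acetylcholine. Many insect neurons also make neuropeptides, short signalling molecules cut from longer precursors, and which ones a neuron makes often follows from the transcription factors it keeps in the adult.

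Counts per well ranged from 1372 to 342232, with a median of 59965, and detected genes from 501 to 5019, with a median of 1089. The 31 wells just inside the rule, with 500 to 599 genes, held a median of 10689 counts, and the 30 wells just outside it, with 400 to 499 genes, a median of 5322. Spike-in RNAs were lower on plate P387, with a median of 10199 counts per well against 31257.5 to 50598 on the others. In the wells at E12 and F12, 10 in all, FMRFa, Optix and br reached at most 1 count and ChAT and Dh44 at most 3. Some of these wells nevertheless held over 500 genes. They were E12 of plate P386 (540 genes), F12 of plate P387 (2081 genes, 8610 counts), and E12 and F12 of plate P393 (586 and 603 genes). The gene rule alone therefore does not separate members from such wells. The plate design includes wells of spike-in RNA and of whole brain RNA, but does not name their positions. A gene is called present in a well below where it had 3 counts or more. Doublets were not called, and 2 wells of plate P387 held more than 4000 genes.

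The wells carried a neuronal and mostly cholinergic signature. Syt1, the calcium sensor of vesicle release, was present in 349 of 362 wells (96.4%, 95% exact binomial interval 93.9 to 98.1, which like the other intervals covers counting error only). It was also present in 5 of the 10 wells at E12 and F12, with up to 29 counts. In the members with Syt1 its median was 23 counts, so its presence alone does not tell them from those wells. The vesicle fusion protein gene nSyb was present in 291 wells, the sodium channel gene para in 296, the active zone gene Rim in 304 and the neuronal RNA-binding protein gene elav in 236. ChAT was present in 207 wells (57.2%, interval 51.9 to 62.3) and VAChT, the vesicular acetylcholine transporter, in 123. Both were present in 93 wells, ChAT alone in 114 and VAChT alone in 30.

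By plate, ChAT was present in 59.7%, 52.3%, 54%, 63% and 57% of wells on plates P386, P387, P388, P390 and P393. The plates lay close together, at 57.2% ± 4.32 (SD, n = 5). Depth went with detection, as wells with ChAT held a median of 75723 counts and those below 3 counts of it 26843. In the 323 wells thinned to 10000 counts each, the mean ChAT share of wells over plates was 68.5% at 1 count or more. Several defining markers of other cells were rare, and some genes of the wider marker lists were common. The glial factor repo was present in 2 wells, the rhodopsin gene ninaE in 1, and the photoreceptor arrestin Arr2, the muscle myosin Mhc and the fat body protein gene Lsp2 in none, which for each allows up to 0.829% of wells at the threshold, a limit on wells with counts and not on cells that express the gene. Of 16 photoreceptor genes norpA, also listed for diacylglycerol signalling, was present in 190 wells and the other 15 each in under 10% of wells, so that 199 wells held any and the summed level per plate was 688 to 989 CPM (counts scaled to the same library total). Of 15 Kenyon cell genes dnc, a cAMP phosphodiesterase, was present in 281 wells and ey, a Pax6 factor, in 1. Another 9 reached at least 10% of wells, 333 wells held any, and their sum was 2586 to 3532 CPM. Of the 22 glial genes listed, none reached 10% of wells, and 61 wells held any of them. Their summed level per plate was 101 to 1170 CPM. Any of 11 hemocyte genes was present in 88 wells, mostly through Pxn, which encodes the matrix enzyme peroxidasin, in 58. The part of these genes in the results below was not tested.

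**Figure D1:**
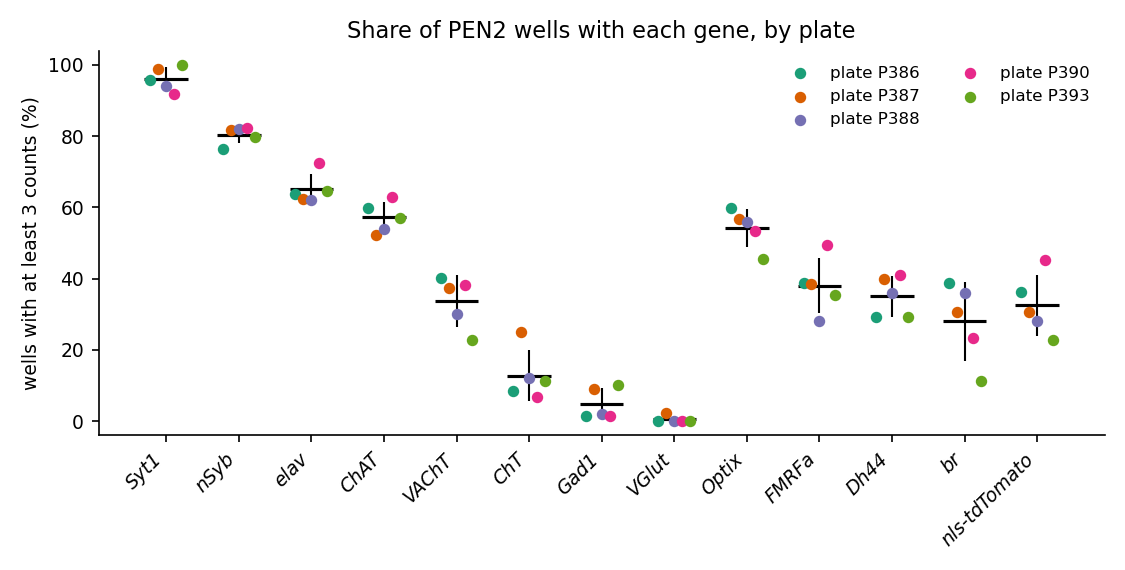
Share of wells with at least 3 counts of each gene on each of the 5 plates (points, coloured by plate), with the mean (horizontal line) and SD (vertical line) over plates; the y axis is in percent of wells. Syt1 and nSyb lie at the top, VGlut and Gad1 near 0, and br spans the range from 11.4% on plate P393 to 38.9% on plate P386.

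Optix, a homeodomain transcription factor of the sine oculis family, was present in 196 wells (54.1%, interval 48.9 to 59.4). Its share was 59.7%, 56.8%, 56%, 53.4% and 45.6% on plates P386, P387, P388, P390 and P393, lowest on plate P393. FMRFa, which encodes the precursor of FMRFamide-related peptides, was present in 140 wells (38.7%). Its share was 38.9%, 38.6%, 28%, 49.3% and 35.4% in the same plate order, lowest on plate P388 and highest on plate P390. Dh44, which encodes a diuretic hormone related to corticotropin-releasing factor, was present in 127 wells (35.1%), at 29.2%, 39.8%, 36%, 41.1% and 29.1% of wells per plate. The gene br encodes Broad, a zinc-finger transcription factor of the ecdysone response. It was present in 99 wells (27.3%), at 38.9%, 30.7%, 36%, 23.3% and 11.4% per plate, and plate P393 had the fewest. The nls-tdTomato reporter itself was present in 118 wells (32.6%), at 36.1%, 30.7%, 28%, 45.2% and 22.8% per plate. Where a marker was present, its counts were mostly far above the threshold. The median count was 191.5 for FMRFa, 177 for Dh44, 177 for ChAT, 111 for br and 89 for Optix.

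FMRFa and br were rarely found in the same well. FMRFa without br was seen in 126 wells, br without FMRFa in 85, both in 14 and neither in 137. If the genes had been spread independently within each plate, 37.9 wells would have held both. The observed number was below this on all 5 plates. It was 6, 6, 1, 0 and 1 wells on plates P386, P387, P388, P390 and P393, and the plates differed in size. In 13 of the 14 wells with both, the weaker gene had only 3 to 5 counts. At a threshold of 10 counts, 112 wells held FMRFa alone, 85 held br alone and 1 held both, where 26.4 were expected.

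**Figure D2:**
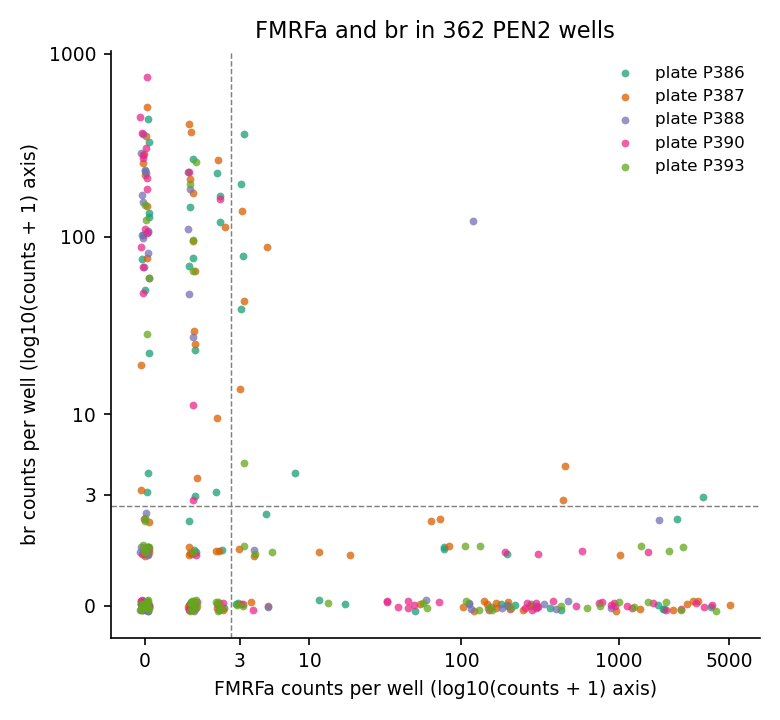
Counts of FMRFa (x axis) and br (y axis) in each of the 362 wells, on log10(counts + 1) axes with a small random offset; points are coloured by plate and dashed lines mark the threshold of 3 counts. Wells with many counts of one gene lie along its axis, and 1 well holds over 100 counts of both.

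The pattern held in deeper and in reporter-positive wells. In wells of at least 20000 counts, 13 held both where 38.9 were expected. Among the 106 wells with at least 10 counts of the nls-tdTomato reporter, 4 held both where 20 were expected. At a threshold of 1 count the deficit was small, with 88 wells against 101.8 expected. The number of wells with any FMRFa count then rose to 229, and 1 count of FMRFa was also the highest seen in the E12 and F12 wells.

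Optix and ChAT were common in both kinds of well. Optix was present in 69% of wells with FMRFa alone and in 69.4% of wells with br alone, and ChAT in 75.4% and 58.8%. The reporter reached 10 counts in 42.1% and 41.2% of these wells. Median depth was 77651.5 counts with FMRFa alone and 66444 with br alone. The 137 wells with neither gene were shallower, with a median of 34558 counts, and Optix was present in 29.9% and the reporter in 10.2% of them.

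Peptide genes occurred together. FMRFa and Dh44 shared 103 wells, against 49.7 expected within plates. The gene spab, listed among the neuropeptide genes, was present in 135 wells and shared 105 with Dh44, against 48 expected. All 3 were present in 95 wells, none in 176, exactly 1 in 65 and exactly 2 in 26. Every plate showed this, with 16, 22, 11, 28 and 18 wells holding all 3 on plates P386, P387, P388, P390 and P393. Wells with all 3 were deeper, with a median of 94167 counts against 53194.5 in wells with none. Of the wells with all 3, 92.6% also held ct, which encodes the homeodomain factor Cut, and 6.32% held br. Of the wells with none, 5.11% held ct and 40.3% held br. Other peptide genes were scarce. Of 47 listed, 20 were in no well and 4 were in at least 10% of wells.

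Several other genes sorted the same way. The LIM-homeodomain gene Lim1 was in 107 of the 140 FMRFa wells, against 69.9 expected, and in 12 of the 99 br wells, against 47.8. The dopamine receptor gene Dop2R shared 92 wells with FMRFa, against 57.1, and 26 with br, against 38.7. The innexin gene shakB, a gap junction subunit, did the opposite, with 32 wells shared with FMRFa against 57.1 expected and 74 shared with br against 41. Its counts lay below expectation for FMRFa and above it for br on all 5 plates. For elav the ratio of observed to expected wells was 1.13 with FMRFa and 1.06 with br.

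**Figure D3:**
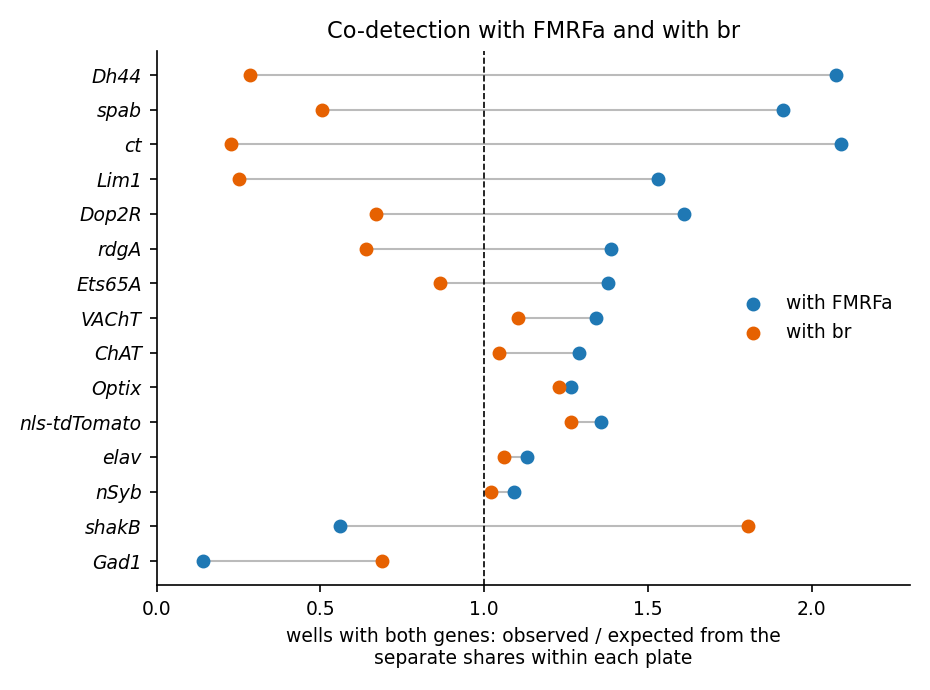
Observed wells with both genes divided by the number expected from the separate shares within each plate (x axis; 1 is the dashed line), for 15 genes paired with FMRFa (blue) and with br (orange). Dh44, spab and ct lie near 2 with FMRFa and near or below 0.5 with br, while shakB lies at 0.561 and 1.81 and elav and nSyb near 1 with both.

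To compare these wells across all genes, counts were summed per plate over the wells with at least 3 counts of a marker and over the wells with 0 counts of it. The 2 sums were compared with edgeR's quasi-likelihood test, with plate as a block and the marker itself left out. Wells were classed by their own counts, so the classes also differed in depth. For FMRFa, 140 wells with a median of 77333.5 counts were set against 133 wells with a median of 49562. Of 6446 genes tested, 68 were higher with FMRFa (1.05% of those tested) and 47 were lower (0.729%), 1.78% in all. Genes without a call are not shown to be equal.

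Dh44 was at 2652, 2150, 3031, 2562 and 2021 CPM in the FMRFa wells of plates P386, P387, P388, P390 and P393. In the wells without FMRFa it was at 888, 78.4, 234, 48.4 and 14.2 CPM. The classes did not overlap, and plate P386 had the highest level without FMRFa. The difference was 4.67 ± 0.40 on the log2 scale (SE from edgeR's test statistic, 5 plates, edgeR adjusted p = 1.23e-17). This SE, like each ± on a log2 difference below, draws partly on the spread of other genes. It can be smaller than the spread of the difference between plates, which the levels per plate show. For ct the levels were 1536, 2034, 2239, 1709 and 2155 CPM with FMRFa and 554, 23.1, 8.49, 11.2 and 164 CPM without it. Again each plate was higher with FMRFa, by 5.59 ± 0.50 on the log2 scale (edgeR adjusted p = 1.73e-16). For spab they were 3762, 2877, 2013, 4025 and 4160 CPM against 861, 337, 260, 115 and 5.69 CPM, a log2 difference of 4.13 ± 0.40 (edgeR adjusted p = 1.02e-14). Of 8 neuropeptide genes tested Dh44 and spab were higher and none lower, while the list median was -0.99.

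Some signalling genes were higher with FMRFa as well. The diacylglycerol kinase gene rdgA stood at 1771 CPM ± 322 (SD, n = 5) with FMRFa and 315 ± 179 without it, and rose by 2.76 ± 0.33 on the log2 scale (edgeR adjusted p = 8.68e-11). The phospholipase C gene norpA rose by 2.13 ± 0.33 (edgeR adjusted p = 5.53e-07), so 2 of 10 listed diacylglycerol signalling genes were higher and none lower, with a list median of 0.74 against 0.19 over all genes tested. Of 16 monoamine receptor genes 3 were higher, with a list median of 0.61. Dop2R rose by 2.07 ± 0.29 (edgeR adjusted p = 5.86e-08) and Dop1R1, another dopamine receptor, by 2.18 ± 0.50. Oamb, an octopamine receptor, rose by 2.45 ± 0.68, a call lost when plate P387, P388 or P390 was left out (edgeR adjusted p = 0.0319 with all plates). The T-type calcium channel gene Ca-alpha1T was the 1 of 21 voltage-gated channel genes that was higher, by 1.45 ± 0.29. Of 13 pan-neuronal genes Rim was higher, by 1.39 ± 0.22, and cpx (complexin) lower, by 1.21 ± 0.29 in size. The call of cpx was lost without plate P387 or P393.

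Transcription factor genes went in both directions. Of 20 homeobox genes tested, ct and the POU factor gene pdm3 were higher and zfh2 and vvl lower. The call of vvl was lost without plate P386, P388 or P393. The level of br was 311, 130, 143, 1.32 and 5.82 CPM with FMRFa and 1714, 1216, 1327, 2016 and 168 CPM without it, lower on every plate although the ranges overlapped. Its log2 difference was -4.17 ± 0.49 (edgeR adjusted p = 4.21e-11). The gene pros, which encodes the homeodomain factor Prospero, was at 1699 CPM ± 603 with FMRFa and 7116 ± 1552 without it. Its log2 difference was -2.06 ± 0.21 (edgeR adjusted p = 1.24e-13). Eip93F, an ecdysone-induced factor, differed by -3.36 ± 0.72, and the SoxB factor gene SoxN by -7.09 ± 0.94. Among 12 heat shock genes Hsp23 and Hsp68 were lower and none higher, and the call of Hsp68 was lost without plate P386. The hemocyte gene Pxn was lower too (-2.88 ± 0.68), and its part in the other differences was not tested. In reporter-positive wells and in wells thinned to 10000 counts Eip93F, pdm3 and Pxn had no call. Eip93F had none in wells of at least 1000 genes either.

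By size, the largest increases with FMRFa were those of vn (6.17 ± 1.10), CG13579 (5.71 ± 1.13), ct, Fkbp14 (5.17 ± 1.44), Sox102F (4.96 ± 0.80) and sano (4.70 ± 0.67). The gene vn encodes Vein, a ligand of the EGF receptor. Sox102F encodes a Sox transcription factor and was present in 56 of 140 wells with FMRFa and 5 of 133 without it. The call of Fkbp14 was lost when plate P387, P388, P390 or P393 was left out. The largest decreases were those of CG14989 (-8.06 ± 0.29), Fur1 (-7.44 ± 1.68), PVRAP (-7.30 ± 1.02), CG12594 (-7.20 ± 1.94), SoxN and CARPA (-6.95 ± 0.53). Calls were lost for Fur1 without plate P390 and for CG12594 without plate P386 or P390. CG14989 was present in 26 of 140 wells with FMRFa (18.6%) and 31 of 133 without it (23.3%), and 15 of the 17 wells where it exceeded 1000 counts were Gad1 wells, described further on. Gad1 itself, the GABA synthesis gene, was present in 1 of the 140 wells and 12 of the 133, and its log2 difference was -7.32 ± 0.79 (edgeR adjusted p = 1.95e-12, lower on 4 plates). In reporter-positive wells 4 of the 5 plates held enough wells for FMRFa. Among the genes without a call there were norpA, Dop1R1, cpx, zfh2, vn, CG13579, PVRAP and Gad1. The part of the Gad1 wells in the other differences was not tested.

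For br, 99 wells with a median of 66444 counts were set against 201 wells with a median of 58183, so depth differed less than for FMRFa. Many of the wells at 0 counts of br were FMRFa wells, so the comparisons for FMRFa and br share wells and are not independent. Of 6568 genes tested, 24 were higher with br (0.365%) and 49 lower (0.746%), 1.11% in all. FMRFa was at 2262, 470, 100, 3.77 and 9.07 CPM with br and 5233, 7195, 2344, 7150 and 3920 CPM without it. It was lower on every plate and the ranges did not overlap, although 2262 CPM lay just below the lowest level without br. The log2 difference was -5.46 ± 0.77 (edgeR adjusted p = 1.3e-05). On plate P386, 1 br well held 3480 FMRFa counts with 3 br counts, and the other br wells there held at most 8 FMRFa counts.

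The gene tey was at 2245, 1365, 1564, 1870 and 980 CPM with br and at 7.76, 18.9, 55.2, 10.3 and 3.90 CPM without it. It was present in 66 of 99 wells with br and 10 of 201 without, and the difference was 6.90 ± 0.49 on the log2 scale (edgeR adjusted p = 1.91e-12). For trv the levels were 4303, 2753, 2720, 4154 and 3327 CPM against 460, 223, 812, 147 and 242 CPM, a log2 difference of 3.43 ± 0.32 (edgeR adjusted p = 1.62e-09). For Drep3, which encodes a protein of the DNA fragmentation factor family, they were 1039, 502, 549, 1076 and 799 CPM against 1.37, 16, 0, 4.07 and 45 CPM. In all 3 genes the lowest plate with br lay above the highest plate without it.

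Other genes higher with br included genes of cell contact and signalling. The innexin gene shakB rose by 1.69 ± 0.32 (edgeR adjusted p = 0.00134). The immunoglobulin gene beat-IIIb, of the beaten path family of axon guidance receptors, rose by 3.65 ± 0.56 (edgeR adjusted p = 6.02e-05). It was the 1 of 21 beat and side genes called higher, and none was lower. The leucine-rich repeat gene kek2 rose by 4.13 ± 0.66. Pvf3, a ligand of the PDGF and VEGF type, rose by 6.14 ± 1.27, and nAChRalpha3, a nicotinic acetylcholine receptor subunit, by 3.98 ± 0.85. The latter was the 1 of 9 nicotinic genes called, and its call was lost without plate P393. Of the transcription factors, pros rose by 1.33 ± 0.23, Eip93F by 3.61 ± 0.60, and the zinc-finger gene jim by 1.94 ± 0.18. The appendage factor gene Dll rose by 7.05 ± 1.81, with its call lost when plate P386, P387, P390 or P393 was left out. The largest increases also held CG31183, at 7.43 ± 1.23, and PVRAP, at 6.01 ± 1.33, the latter lost without plate P388. PVRAP was at 497, 451, 383, 220 and 327 CPM with br on plates P386, P387, P388, P390 and P393. Without br it was at 1.37, 191, 0.823, 0 and 183 CPM, so the gap was far smaller on plates P387 and P393. In reporter-positive wells CG31183, PVRAP, Pvf3, nAChRalpha3 and Dll had no call.

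Genes lower with br held the peptide genes and several transcription factors. Wnt4, a Wnt ligand, was at 75.9, 14.3, 9.28, 1.51 and 6.48 CPM with br and 738, 816, 1002, 992 and 428 CPM without it. The classes did not overlap, and the log2 difference was -6.13 ± 0.66 (edgeR adjusted p = 3.16e-08). Of 13 neuropeptide genes FMRFa, Dh44 (-4.72 ± 0.69) and spab (-3.32 ± 0.35) were lower and none higher, with a list median of -2.45 against -0.33 over all genes. Lim1 (-4.06 ± 0.78), ct (-3.82 ± 0.69) and the zinc-finger gene mamo (-3.73 ± 0.53) were lower on all 5 plates. So were danr (-5.78 ± 1.49, lost without plate P386, P387, P390 or P393), CG42458 (-4.85 ± 0.83), Ca-alpha1T (-2.20 ± 0.42) and rdgA (-2.76 ± 0.51). The levels of danr were 0, 68.9, 76.8, 0 and 0 CPM with br and 193, 456, 170, 131 and 65.1 CPM without it, with overlapping ranges. Of 16 monoamine receptor genes Dop1R1 (-5.21 ± 1.27) and Oamb (-3.48 ± 0.86) were lower. Dop1R1 was at 4.50, 203, 363, 0 and 1.30 CPM with br and at 589, 210, 570, 420 and 382 CPM without it. Its ranges overlapped, and on plates P387 and P388 the gap was much smaller than the log2 difference. Calls were lost without plate P390 or P393 for Dop1R1 and without plate P388 or P390 for Oamb. The transmitter synthesis gene Ddc, a decarboxylase of the dopamine and serotonin pathways, differed by -1.73 ± 0.35. None of the 3 acetylcholine release genes was called with FMRFa, Dh44 or br.

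**Figure D4:**
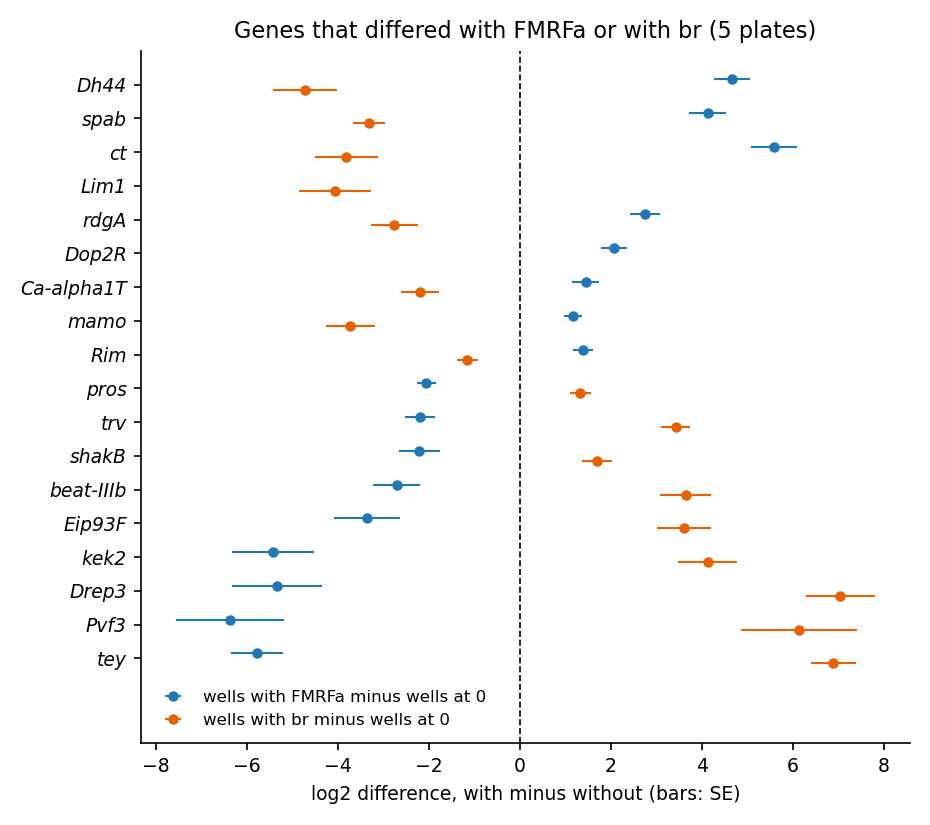
Log2 difference (x axis, 5 plates) between wells with and wells at 0 counts of FMRFa (blue) and of br (orange). Bars are SE from edgeR's test statistic and not the spread between plates. The 18 genes were chosen from those called in at least 1 of the comparisons, and only called differences are drawn. Genes such as Dh44, spab and ct lie to the right for FMRFa and to the left for br, and tey, Drep3 and trv the other way round; the comparisons share wells.

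For Dh44, 127 wells with a median of 85520 counts were set against 171 with a median of 54870. Of 6668 genes tested, 80 were higher (1.20%) and 69 lower (1.03%), 2.23% in all. FMRFa was at 7650, 8282, 3889, 10183 and 10391 CPM with Dh44 and at 37.2, 131, 9.12, 621 and 29.6 CPM without it. Every plate was far higher with Dh44, by 7.01 ± 0.30 on the log2 scale (edgeR adjusted p = 7.35e-44). Sox102F rose by 7.28 ± 0.85 and was present in 59 of 127 wells against 2 of 171. Lim1 rose by 1.62 ± 0.30 (edgeR adjusted p = 2.33e-05) and Dop1R1 by 3.08 ± 0.40. Among 9 nicotinic receptor genes nAChRalpha1, nAChRalpha3 and nAChRalpha7 were lower and none higher. The call of nAChRalpha3 was lost without plate P390 and that of nAChRalpha7 without plate P388 or P393. In reporter-positive wells nAChRalpha1 and nAChRalpha7 had no call, and in wells thinned to 10000 counts nAChRalpha1 had none. The adhesion gene DIP-eta rose by 6.03 ± 1.60, a call lost without plate P386, P388 or P393. CG13579 rose by 5.66 ± 1.06, and PVRAP (-9.32 ± 0.91), CARPA (-7.88 ± 0.53), CG32547 (-7.33 ± 1.49) and kek2 (-6.89 ± 0.75) were lower. Of the other largest changes, calls were lost for Lac without plate P387, P388 or P390, for Scgdelta without plate P386, P387, P388 or P390, for CG9008 without plate P386, P388, P390 or P393, and for Dll when any 1 of the 5 plates was left out. Gad1 was lower too, with a log2 difference of -7.43 ± 0.78, and was present in 1 of 127 wells against 14 of 171. In reporter-positive wells Gad1, CG32547 and DIP-eta had no call. The mitochondrial transcripts mt:ATPase6, mt:CoI, mt:CoII, mt:Cyt-b and mt:ND1 were also lower with Dh44. For mt:CoI the level was 5837 CPM ± 1289 (SD, n = 5) with Dh44 and 9896 ± 1999 without it, a log2 difference of -0.77 ± 0.15 (edgeR adjusted p = 0.000182). With br 1 mitochondrial transcript, mt:lrRNA, was lower (-1.07 ± 0.17), and none was called with FMRFa or Optix. The part of mitochondrial RNA, depth and the Gad1 wells in these differences was not tested.

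Fewer genes went with ChAT and Optix. For ChAT, 207 wells with a median of 75723 counts were set against 89 wells with a median of 30083, the largest gap in depth of the 5 comparisons. Of 6394 genes tested, 12 were higher and 12 lower (0.188% each, 0.375% in all), and the median over all genes was 1.09 on the log2 scale, so increases of about that size were no larger than the median gene's. Higher were bma (1.73 ± 0.41, lost without plate P386 or P387), Ddc (1.60 ± 0.35, lost without plate P386), CG31221 (1.06 ± 0.19), Ace (1.23 ± 0.28), the acetylcholinesterase that ends cholinergic transmission, Appl (1.38 ± 0.24), the fly relative of the amyloid precursor protein, and Dh44 (2.36 ± 0.42). The peptide genes FMRFa (1.19 ± 0.26, lost without plate P386 or P390) and spab (2.08 ± 0.38) were higher too. The call of Ace was lost without plate P387 or P393. In wells thinned to 10000 counts bma, Ddc, CG31221, Ace, Appl, FMRFa and spab had no call, while that of Dh44 was kept there and lost in reporter-positive wells. Of the 12 lower genes 6 were mitochondrial transcripts. The level of mt:CoI was 5711, 5890, 6698, 4116 and 5870 CPM with ChAT and 19148, 11936, 9330, 13028 and 12155 CPM without it, a log2 difference of -1.21 ± 0.16 (edgeR adjusted p = 1.87e-11). In wells of at least 1000 genes, of at least 20000 counts, thinned to 10000 counts, or positive for the reporter, mt:CoI had no call. In reporter-positive wells 1 gene was called for ChAT, and 3 of the 5 plates held enough wells.

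For Optix, 196 wells with a median of 70257 counts were set against 147 wells with a median of 42634. Of 6740 genes tested, 4 were higher (0.0593%) and 9 lower (0.134%), 0.193% in all. With upper-quartile scaling 9 were higher and 9 lower. Without plate P386 there were 26 calls and without plate P388 there were 30. Higher were CG30419 (2.97 ± 0.46), Dh44 (1.75 ± 0.31), jus (1.70 ± 0.34) and ct (1.53 ± 0.31, lost without plate P393). In wells thinned to 10000 counts CG30419 kept its call and Dh44, jus and ct did not. In reporter-positive wells none of these 4 genes had a call. Gad1, which makes the inhibitory transmitter GABA, was at 0.304, 18.4, 0, 0 and 1.53 CPM with Optix and at 138, 1285, 276, 176 and 764 CPM without it, a log2 difference of -8.48 ± 0.70 (edgeR adjusted p = 1.37e-12). The peptide gene Proc, the proctolin precursor, was also lower, with its call lost without plate P387, P388 or P393. CG13739 (-5.96 ± 0.78) and CARPA (-2.69 ± 0.43) were lower as well. Vm26Aa, Vm32E and Vm34Ca, all called lower, encode vitelline membrane proteins of the egg shell. They were present in 4, 5 and 5 wells of the 362, and the call of Vm32E was lost without plate P390. The 5 highest wells held 99.9% of Vm26Aa counts, 99.8% of Vm32E counts and 99.9% of Vm34Ca counts.

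A small group of wells carried Gad1 in place of the cholinergic genes. Gad1 was present in 19 wells, 17 of them without ChAT or VAChT and on all 5 plates, with a median of 181152 counts. The vesicular GABA transporter VGAT was present in 9 of the 19, Optix in 1, FMRFa in 1, br in 3 and the reporter in 4, in 3 of them at 10 counts or more. All 19 held CG14989 against 6.90 expected, and CARPA, a carbonic anhydrase-related gene, was in 14 against 3.03 expected, above expectation on 4 plates. CG14989 exceeded 1000 counts in 17 wells of the 5 plates, and 15 of these were Gad1 wells. VGlut, the glutamate transporter, was present in 2 wells, both on plate P387. In 106 wells none of ChAT, VAChT, Gad1 and VGlut was present, and their median depth was 18563 counts. Whether the Gad1 wells are PEN2 neurons was not tested.

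Variation between wells of a plate was measured for 4151 genes as the variance beyond counting noise divided by the squared mean, scaled by the well's total. Spike-in RNAs, synthetic RNAs added to each well, were measured the same way with their own total. At a mean of 10 to 100 counts per well the median was 2.57 over 1063 genes and 3.96 over 16 spike-ins. At 100 to 1000 counts it was 0.597 over 67 genes and 0.378 over 9 spike-ins, whose values ran from 0.0895 to 0.822. FMRFa, with a mean of 252 counts, stood at 4.30, 5.40, 6.01, 2.82 and 4.41 on plates P386, P387, P388, P390 and P393, all above the highest of those spike-in medians. Dh44 had a median over plates of 2.54 at a mean of 80.8 counts and br of 3.41 at 41.5 counts, and Optix lay at 1.22. These 3 were within the range of the 16 spike-ins at 10 to 100 counts, 1.05 to 7.13, whose means differed widely. The highest of these, at 7.13, had a mean of 14.6 counts. The spike-ins nearest in mean to Dh44, at 71.7 and 89.0 counts, stood at 1.37 and 1.24, below Dh44. The nearest to br, at 42.4 counts, stood at 2.03, below br. The nearest to Optix, at 58.4 counts, stood at 1.36, above Optix. ChAT lay at 1.02, with plates from 0.603 to 1.50, and plate P386 lay below the highest spike-in of its range, at 0.822. Among genes of high level, the most even included Atpalpha, the sodium pump subunit, at 0.182, the potassium channel gene Sh at 0.203 and the GABA receptor gene Rdl at 0.243. Their means were 17830, 4978 and 4661 CPM, and the measure ran lower at higher means in genes and spike-ins alike. Spike-ins with means of 991 and 1083 counts stood at 0.0895 and 0.0539, lower than all of these genes.

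**Figure D5:**
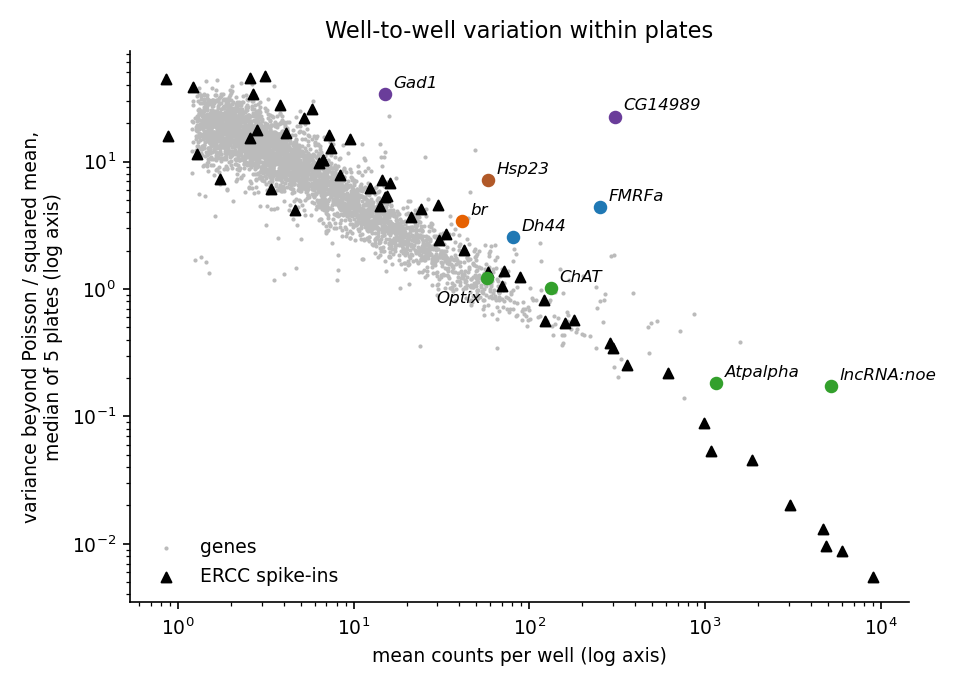
Variance beyond Poisson noise divided by the squared mean (y axis, median of 5 plates, log axis) against mean counts per well (x axis, log axis) for 4151 genes (grey) and ERCC spike-ins (triangles). FMRFa lies at 4.41, CG14989 at 22.5, Gad1 at 33.8 and Hsp23 at 7.15, while Atpalpha lies at 0.182 and lncRNA:noe at 0.173.

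Relative to genes of the same level bin, the 20 most variable genes that stood out on at least 4 plates held CG14989 (20.8 times the median of its level bin), CG3823 (11.3 times), Gad1 (10.5 times), Hsp23 (8.63 times) and FMRFa (5.64 times). They also held spab, trv and ct, described above, and Nplp1, another peptide precursor gene. The highest bin was wide, with CG3823 at a mean of 785 CPM and lncRNA:noe at 79547 CPM. CG14989, Hsp23, FMRFa, spab, trv and ct lay in it too, so their multiples are not against genes of closely like mean. For some of these a few wells carried the signal. The 5 highest wells held 71.5% of all CG3823 counts, 53.8% of Nplp1 and 44.4% of CG14989, against 21.5% of FMRFa and 12.4% of ct.

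Heat shock genes were found in the same wells. Hsp23, Hsp26 and Hsp27 encode small heat shock proteins, Hsp68 a chaperone of the Hsp70 family and stv its co-chaperone Starvin, and all 5 were among the 20. Hsp23 and Hsp27 shared 30 wells against 6.60 expected, and Hsp23 and Hsp26 shared 45 against 13.2, in both pairs above expectation on all 5 plates. In 227 wells none of the 5 was present and in 39 at least 3 were, at 10, 13, 6, 4 and 6 wells on plates P386, P387, P388, P390 and P393. The 11 wells with all 5 lay on 3 plates and had a median of 112901 counts and those with none 45290. Optix was present in 54.5% of the former and 52.9% of the latter. The activity-regulated gene sr, which encodes the EGR-type factor Stripe, was also among the 20, was present in 90 wells and was higher with Dh44, by 1.79 ± 0.41, a call lost without plate P386.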

How the data were processed

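Single sorted cells were sequenced in 96-well plates. The authors deposited raw counts per gene for each well; per the submitters' processing notes, STARsolo and edgeR were used, with no version given. The genome build, and whether counts are reads or unique molecules, are not given in the sources used here. Features numbered 17713, of which 17612 were genes, 92 spike-ins and 9 transgenes; the well total is the sum over genes. Depth per well ranged from 1372 to 342232 counts, which sets how often a low gene is seen. Well names give 96 positions used on every plate and carry no barcode sequence. The table of plate P393 spelled the line name with an extra digit, and the sample characteristics were followed. A table of low-cell libraries of the same line gave gene names only; its 14 value columns could not be tied to labelled samples and were not used. Doublets were neither called nor removed.

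CPM values were computed here. Expected co-detection is the product of the 2 genes' shares within each plate, summed over plates. Variation is the variance beyond Poisson noise over the squared mean per plate, the median of 5 plates, ranked within 20 bins of mean level. For each marker, counts were summed per plate and well class (at least 3 counts against 0) and tested with edgeR 4.0.16 (R 4.3.3, TMM scaling, filterByExpr, quasi-likelihood F test, Benjamini-Hochberg adjusted p under 0.05) with plate as a block, since both classes come from the same plate. All adjusted p-values are from this test. The SE of a log2 difference is its size divided by the square root of the test's F statistic. The test was checked on counts simulated for the FMRFa comparison, with 100 genes changed per size. It called 4% of those changed by 2 on the log2 scale and 0% of those changed by 1. A gene without a call may therefore still differ, and counts of list members called say little about the other members.

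The wells and lists were chosen with earlier results of these data known. Named are the 5 markers, the transmitter and pan-neuronal lists, the 20 most variable genes (at least 20 CPM and 10 wells, in the top 10% of their bin on at least 4 plates), per comparison the 6 largest called changes per direction with at least 20 CPM and the same sign on every plate, and members of other lists by share or variation. Called list members, mamo, jim, trv, shakB, tey, pros, Eip93F, Wnt4, kek2, Drep3, Pvf3, PVRAP, Vm26Aa and Vm34Ca, and the classes of wells by FMRFa and br, peptide, transmitter and heat shock genes, were described after their values were seen. Of the listed symbols 5 had no match, and 9 wrong or duplicate entries were dropped after shares had been seen. Alternatives were other scalings, no filter, DESeq2 1.42, no plate block, thresholds of 1 and 10 counts, deeper, reporter-positive or thinned wells, and leaving out each plate. Python 3.11.15, numpy 2.4.6, pandas 2.3.3 and scipy 1.17.1 were used.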

Additional observations from a re-analysis of the deposited data

Results flagged for a closer look

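For 71 shares or levels over the 5 plates, the gap of the highest or lowest plate to its nearest neighbour was set against the range, a test that chance passes in about 1 in 20 groups, and 11 stood apart. Plate P386 was highest for the share of wells with myr-GFP-p10 (58.3%, against 36% to 42.5% elsewhere). It was also highest for Dh44 in wells without FMRFa (888 CPM, against 14.2 to 234), for ct in those wells (554 CPM, against 8.49 to 164), for FMRFa in br wells (2262 CPM, against 3.77 to 470) and for Wnt4 in br wells (75.9 CPM, against 1.51 to 14.3). Plate P387 was highest for the choline transporter gene ChT (25% of wells, against 6.85% to 12%), for VGlut (2.27%, against 0) and for Gad1 in Optix wells (18.4 CPM, against 0 to 1.53). Plate P390 was highest for elav (72.6%, against 62% to 64.6%) and for FMRFa in wells without Dh44 (621 CPM, against 9.12 to 131), and lowest for Hsp68 (5.48%, against 12% to 13.6%). The transgene myr-GFP-p10, which the labels of these cells do not name, was present in 42.8% of all wells and reached at most 3 counts in the E12 and F12 wells.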

How the results depend on the processing

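Of 2869 values of 161 named gene results under the alternatives, 2428 kept direction and call, 437 lost the call and 4 reversed. The reversals were CG13739 with ChAT (2.06, reporter wells), CARPA with Optix (0.46, reporter wells), Vm34Ca with Dh44 (0.0321, thinned wells) and beat-VI with Dh44 (-0.64, reporter wells). In numbers of genes called, DESeq2 gave 320 for ChAT, 196 for Optix, 411 for FMRFa, 495 for Dh44 and 370 for br. It shared 12 of the 24 edgeR calls for ChAT, 11 of 13 for Optix and 110 of 115 for FMRFa. For Dh44 it shared 146 of 149 and for br 70 of 73. In the ChAT comparison Ddc, Appl, Ace, CG31221, FMRFa and spab had no call with DESeq2. With no filter there were 38 for ChAT, 48 for Optix and 112 for br. With no replicate block (plate) there were 6 for ChAT, 6 for Optix, 68 for FMRFa and 23 for br. Wells positive at 1 count gave 54 for FMRFa, 83 for Dh44 and 37 for br, and reporter wells 1 for ChAT, 3 for Optix, 64 for FMRFa and 83 for Dh44. Thinning gave 7 for ChAT. For Optix, wells of at least 1000 genes gave 20, wells of at least 20000 counts 30, and adjustment over all 5 comparisons 30. Leaving out 1 plate gave 18 to 26 for ChAT, 11 to 30 for Optix, 99 to 120 for FMRFa, 121 to 148 for Dh44 and 61 to 86 for br. Mean shares of wells over plates moved with threshold and depth. At 1 count they were 74.8% for ChAT share of wells, 61.5% for FMRFa, 52.1% for Dh44 and 44.7% for br, and at 10 counts 48.4% for Optix share of wells. Thinned wells gave 68.5% for ChAT and 43.3% for Dh44. Reporter wells gave 70.7% for ChAT, 72.4% for Optix, 53.3% for FMRFa and 49.9% for Dh44. Wells of at least 1000 genes gave 72.6% for ChAT, 65.6% for Optix, 48.3% for FMRFa and 46.2% for Dh44, and wells of at least 20000 counts 68.9% for ChAT and 61.8% for Optix. The ratio of observed to expected wells with FMRFa and br was 0.864 at 1 count, 0.0379 at 10 counts and 0.200 in reporter wells, and was below 1 under every threshold and depth tried. The median overdispersion within plates over genes was 5.65 in reporter wells and 7.69 in wells of at least 1000 genes. The cause of these changes was not tested.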
